A study of Mus musculus with 25 samples.

Results

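Chemokines are small secreted proteins that steer migrating cells along a gradient, and they fall into families named after the spacing of their first cysteines (CC, CXC, XC and CX3C). Each binds 1 or more G protein-coupled receptors on the responding cell, which couple to inhibitory G proteins and to integrin activation, and several receptors share ligands. In injured brain, microglia, astrocytes, endothelium and invading myeloid cells are known sources, and the receptors are known from leukocytes, microglia and some neural cells. The 9 chemokines described here are the CC ligands Ccl2, Ccl3, Ccl4, Ccl5, Ccl6, Ccl9 and Ccl12 and the CXC ligands Cxcl10 and Cxcl16, chosen by symbol, without use of any measured value, out of 23351 genes in the expression table. All 9 had 1 row each.

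The libraries hold RNA of mouse oligodendrocyte precursor cells, the dividing glial cells that give rise to myelin-forming oligodendrocytes, cut from brain by laser capture microdissection and amplified as cDNA. There were 10 control libraries, 8 taken on Day 5 of white matter stroke, an ischemic injury of myelinated tracts, and 7 taken on Day 15. The sources used here do not give strain, sex, genotype, the way the stroke was made, what the controls underwent or which areas were captured, and no transgene or drug is named for any group. No label links a library to an animal. If several areas came from 1 animal the p-values are too small, and in any case they measure only the spread between these samples. The authors deposited values named RPKM, a unit in which read numbers are divided by the length of the gene and by a total for the library. Which lengths and totals were used is not stated, so comparisons of level between different genes are uncertain.

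Beside the values below stand some facts about the libraries. The number of genes at 1 RPKM or more ran from 1306 to 4320 in controls (median 2329.5), from 2353 to 6592 at Day 5 (median 4006.5) and from 1749 to 5266 at Day 15 (median 2509), and the depth of each library is unknown. Genes that every cell uses could be very low: Gapdh was at most 0.269 RPKM in any library, while Actb was at least 3.41. A value of 0 for a chemokine therefore says only that it is listed at 0, and no mean or SD is given over such values. Markers of oligodendrocyte precursors were low, with a median Pdgfra level of 0.607 RPKM in controls, 4.71 at Day 5 and 0.643 at Day 15. Olig2 had medians of 0.631, 0.404 and 0.151 in the same order, while Gpr17, another marker on the list, had 0.326, 1.49 and 1.81. Summed over all 8 precursor markers, the medians were 8.46, 19.7 and 8.57. The sum of 6 myelin genes had medians of 565, 147 and 153, that of 10 microglial markers 13.9, 44.2 and 166, and that of 10 macrophage markers, led by Lyz2, 11.8, 274 and 65.3. In such captured samples a higher level cannot be told apart from a larger number of cells of a type that makes the transcript. Day 5 replicate 4 and Day 15 replicate 5 were the most alike of the library pairs from different groups (r = 0.15 across the genes kept, after removal of group means). These 2 and Day 15 replicate 6 were left out together as an alternative, although r between Day 15 replicate 6 and Day 5 replicate 4 was -0.034.

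None of the 9 chemokines passed the test at either time. With limma on log2(RPKM + 1), a Benjamini-Hochberg adjusted p under 0.05 was reached by 0 of 9 at Day 5 against control, at Day 15 against control, at Day 15 against Day 5 and for both stroke days together against control. Only Ccl3, Ccl5, Cxcl10 and Cxcl16 reached 1 RPKM in at least 7 libraries and were tested among 4319 genes, and the other 5 take their adjusted p from a fit of all 22610 genes above 0. Among the 4319 genes 6.04% were called at Day 5, 0.0926% at Day 15, 0% between the days and 1.55% for both stroke days, and without the filter the shares were 0.106%, 0%, 0% and 0%. The count of 0 thus stands beside backgrounds at which few or no genes were called outside Day 5. At an unadjusted p under 0.05, 3 of the 4 more abundant members (Ccl3, Cxcl10, Cxcl16) and 2 of the 5 rarer ones (Ccl2, Ccl4) differed at Day 5, against 26.0% of the genes kept and 13.7% of all genes. The Day 5 count did not hold under other scalings: with upper-quartile, sum or quantile scaling it was 0 of the 4, and without a filter only Ccl2 was left of the 9. The background fell as well, to 545, 575 and 529 of the 4319 genes from 1121, and to 1520, 1681 and 1178 of the 22610 from 3102. With the number of detected genes in the model the Day 5 count was 0 of 4 and 0 of 9, where 447 of the 4319 genes and 1370 of the 22610 differed. At Day 15 the members under an unadjusted 0.05 were 2 of 4 (Ccl3, Ccl5) and 2 of 5 (Ccl6, Ccl12), against 8.87% and 3.62%. These 4 stayed under 0.05 in each of those settings, where 416 to 487 of the 4319 genes and 835 to 1284 of the 22610 did.

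**Figure D1:**
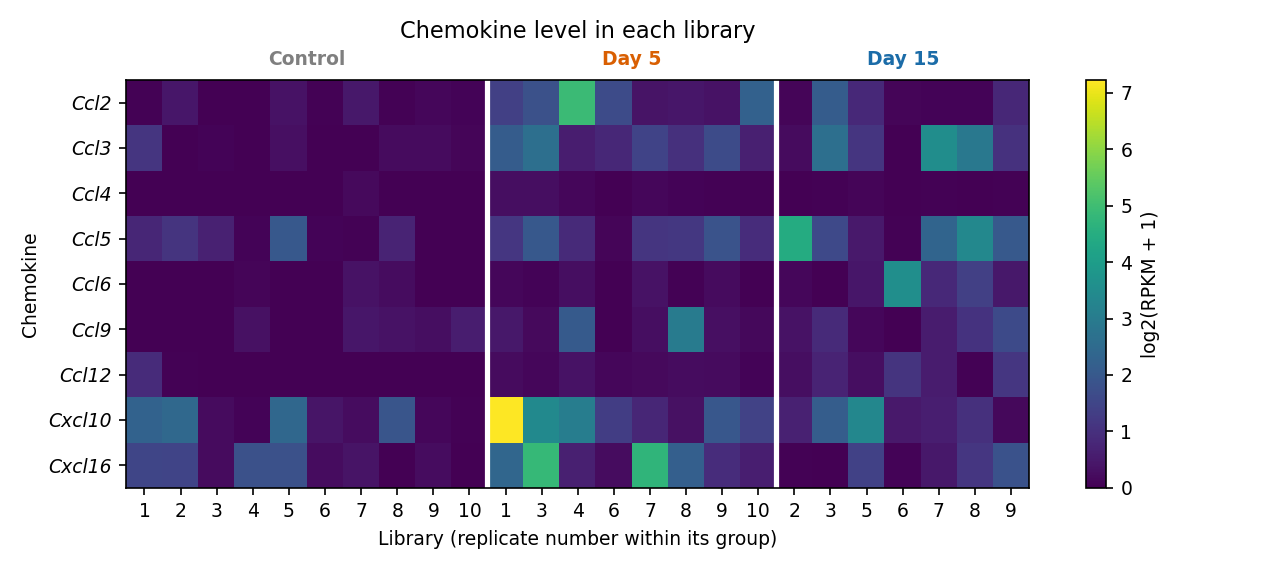
Level of each chemokine (rows) in each of the 25 libraries (columns, replicate number within the group), as log2(RPKM + 1) by colour. Single libraries stand out row by row, and they are different libraries for different chemokines: Cxcl10 reached 149 RPKM in Day 5 replicate 1, Ccl2 reached 29.4 in Day 5 replicate 4 and Ccl5 reached 21.0 in Day 15 replicate 2.

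The 9 chemokines did not peak in the same library. Their summed level ran from 0.592 to 10.3 RPKM in controls (median 2.30), from 4.76 to 160 at Day 5 (median 22.0) and from 11.2 to 22.4 at Day 15 (median 15.5). The 7 libraries of Day 15 all lay above the highest control in this sum, by a narrow margin (11.2 against 10.3). The lowest Day 5 libraries overlapped with the controls. Each of the 9 members taken alone overlapped between Day 15 and control. The chemokine sum was not alone in this: the sum of 10 microglial markers was at least 24.2 at Day 15 and at most 21.2 in controls. The sums of the other cell type marker lists overlapped between Day 15 and control. Cxcl10 was the most abundant of the 9 in 8 of 25 libraries, Ccl2 and Ccl5 in 4 each, Ccl9 and Cxcl16 in 3 each, Ccl3 in 2 and Ccl6 in 1, and Ccl4 and Ccl12 led in none. The leading chemokine made up a median of 57.1% of the sum in controls, 54.3% at Day 5 and 61.7% at Day 15. After the group means were taken out, the 2 most alike members over 25 libraries were Ccl3 and Ccl5 (Spearman's rho 0.43), and Ccl2 and Ccl5 were the least alike (rho -0.30). These are descriptions of libraries that share an amplification step and differ in the number of detected genes.

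Ccl2, the main attractant of monocytes through the receptor Ccr2, had the largest Day 5 change of the 9, though it did not pass the test. In controls it ran from 0, listed in 1 library, to 0.369 RPKM, with a median of 0.0423. At Day 5 it ran from 0.282 to 29.4 with a median of 1.88, and at Day 15 from 0.0431 to 3.29 with a median of 0.0777. All 8 Day 5 libraries lay above the control median and 5 lay above the highest control, while 4 of 7 Day 15 libraries lay within the control range. The Day 5 change was 1.49 on the log2(RPKM + 1) scale (SE 0.44, 95% interval 0.58 to 2.41, adjusted p = 0.167 by limma without a filter), and the Day 15 change was 0.43 (SE 0.46, adjusted p = 0.942). Without Day 15 replicate 3 the Day 15 change was 0.17. Between the days the difference was -1.06 (SE 0.48, adjusted p = 0.607), and it was -0.59 without Day 5 replicate 4. A pseudocount of 1 understates the change of a gene this low: with a pseudocount of 0.1 the Day 5 change was 3.22 and passed the test (adjusted p = 0.0362). Without Day 5 replicate 4, which held 72.9% of the Day 5 sum, the change was 1.02. Ccl2 moved with the number of detected genes (Spearman's rho 0.64 over 25 libraries after removal of group means, where the upper quartile of the genes kept was 0.52). With that number in the model its Day 5 change was 0.86 (SE 0.48, adjusted p = 0.830). Day 5 replicate 4 also had the highest sum of macrophage markers, 2269 against 77.7 to 915 in the other Day 5 libraries. This sum was mostly Lyz2, at 2210. Of the other markers there, Cd68 lay below its Day 5 median (25.5 against 29.2), and F13a1 had its highest Day 5 value (6.80). Day 5 replicate 9, with the next sum of 915, had the lowest Day 5 Ccl2, 0.282. The part of macrophages in the Ccl2 level was not tested.

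Ccl12, a close relative of Ccl2 that also signals through Ccr2, was far lower and followed another course. Controls ran from 0 to 0.839 RPKM (median 0.00815), but 9 of the 10 lay at or below 0.0381 and only Control replicate 1 was higher. Day 5 libraries lay between 0.0561 and 0.267 (median 0.148), and Day 15 libraries between 0.0375 and 1.23 (median 0.455). All 8 Day 5 and all 7 Day 15 libraries were above the control median, and 6 of 7 Day 15 libraries were above the Day 5 median. The changes were 0.09 at Day 5 (SE 0.15, adjusted p = 0.795) and 0.48 at Day 15 (SE 0.15, adjusted p = 0.942, limma without a filter). Without Control replicate 1 they were 0.18 and 0.57, and neither passed the test. Ccl2 and Ccl12 were not alike across libraries (rho -0.04 over 25 libraries).

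Ccl3, also known as MIP-1 alpha, attracts myeloid cells and lymphocytes, with Ccr1 among its receptors. It came nearest to the threshold of the 4 members tested among the 4319 genes. In the fit without a filter, which held all 9, Ccl2 at Day 5 came nearest (adjusted p = 0.167 by limma), and Ccl3 at Day 5 was at 0.239. In controls Ccl3 ran from 0, listed in 3 libraries, to 1.15 RPKM (median 0.0586), with 9 of 10 libraries at or below 0.233. Day 5 libraries ran from 0.502 to 5.20 (median 1.37), so that all of them lay above every control except Control replicate 1. Day 15 libraries ran from 0.0161 to 10.8 (median 1.18), with 2 of 7 inside the range of the lower controls. The change was 1.16 at Day 5 (SE 0.44, 95% interval 0.27 to 2.04, adjusted p = 0.0881), 1.44 at Day 15 (SE 0.46, 95% interval 0.52 to 2.36, adjusted p = 0.202) and 1.30 for both stroke days together (SE 0.38, adjusted p = 0.0594). Between the days it was 0.28 (SE 0.48, 95% interval -0.68 to 1.25), which leaves the order of the 2 days unresolved, and it was 0.60 without Day 5 replicate 4 and Day 15 replicates 5 and 6. Ccl3 passed the test under several other settings. With a pseudocount of 0.1 the Day 5 change was 2.96 (adjusted p = 0.0145) and that of both stroke days 2.96 (adjusted p = 0.00594), with Day 5 and control libraries fitted alone the Day 5 adjusted p was 0.0184, and with limma's library weights the Day 15 adjusted p was 0.0245. Of the 25 fits that left out 1 library, 3 gave an adjusted p under 0.05 for both stroke days, namely those without Day 15 replicate 2 (0.0445), Day 15 replicate 6 (0.0350) and Day 5 replicate 6 (0.0459). With Day 5 replicate 4 and Day 15 replicates 5 and 6 left out together it was 0.0475. These include the lowest Ccl3 library of each stroke day (0.502 and 0.0161 RPKM), so leaving them out raises the change by its construction. With the number of detected genes in the model the Day 5 change was 0.98 and the Day 15 change 1.39.

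Ccl4, or MIP-1 beta, is encoded next to Ccl3, and it was close to 0 throughout. It was listed at 0 in 8 of 10 controls, the other 2 being at 0.00498 and 0.129 RPKM. Day 5 libraries ran from 0 to 0.202 (median 0.0669) and Day 15 libraries from 0 to 0.0681 (median 0.0249). Of the 8 Day 5 libraries 7 were above 0, as were 6 of 7 at Day 15, and none of the 25 reached 1 RPKM. The changes were 0.10 at Day 5 (SE 0.03, adjusted p = 0.201) and 0.02 at Day 15 (SE 0.03, adjusted p = 0.999). At the median, Ccl3 was at 1.37 RPKM and Ccl4 at 0.0669 in the same Day 5 libraries, although the genes are neighbours.

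Ccl5, or RANTES, attracts T cells, monocytes and other leukocytes, with Ccr1 and Ccr3 among its receptors. Controls ran from 0 to 2.94 RPKM (median 0.323), Day 5 libraries from 0.0781 to 3.01 (median 1.19) and Day 15 libraries from 0.0229 to 21.0 (median 3.07). At Day 15, 4 of 7 libraries were above the highest control and 2 of 7, replicates 5 and 6, were below 0.5, so the group was widely spread. The change was 0.61 at Day 5 (SE 0.49, adjusted p = 0.430) and 1.5 at Day 15 (SE 0.50, 95% interval 0.49 to 2.51, adjusted p = 0.256). Between the days the difference was 0.90 (SE 0.53, adjusted p = 0.427), and 0.49 without Day 15 replicate 2. It was 1.57 (adjusted p = 0.219) without Day 5 replicate 4 and Day 15 replicates 5 and 6, and so moved either way with the libraries left out. With limma's library weights the Day 15 change passed the test (adjusted p = 0.0245), as did that of both stroke days (adjusted p = 0.0209). The 2 libraries with most Ccl5, Day 15 replicates 2 and 8 at 21.0 and 9.32 RPKM, held different lymphocyte transcripts. Day 15 replicate 2 had Cd3e, a subunit of the T cell receptor complex, at 2.27 and Nkg7, a granule protein of cytotoxic lymphocytes, at 3.40, and Gzmb, which encodes granzyme B, was listed at 0. Day 15 replicate 8 had Gzmb at 2.64, with Cd3e at 0.00107 and Nkg7 listed at 0. The control maxima were 0.275 for Cd3e, 0.365 for Nkg7 and 0.0585 for Gzmb. The summed T and NK cell markers (9 genes) ran from 0 to 4.06 in controls, 0.121 to 5.25 at Day 5 and 0.0693 to 6.07 at Day 15. Day 15 replicates 2 and 8 had sums of 5.67 and 2.64, above the Day 15 median of 1.19. Nearly all of the sum was Cd3e and Nkg7 in replicate 2 and Gzmb in replicate 8. The other markers of the list were at or close to 0 in these 2 libraries. The highest sum was in Day 15 replicate 5, where Ccl5 was 0.403. The part of lymphocytes in the Ccl5 level was not tested.

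Ccl6 and Ccl9, rodent CC chemokines that signal through Ccr1 and are known from myeloid cells including microglia, were low outside a few libraries. Ccl6 was at most 0.265 RPKM in controls and 0.266 at Day 5, with medians of 0.00044 and 0.0648, and ran from 0.0124 to 10.9 at Day 15 with a median of 0.369. At Day 15, 5 of 7 libraries lay above every control and every Day 5 library. The Day 15 change was 0.91 against control (SE 0.32, adjusted p = 0.942) and 0.84 against Day 5 (SE 0.33, adjusted p = 0.601, limma without a filter). Without Day 15 replicate 6, which held 77.2% of the Day 15 sum, these were 0.48 and 0.41, and without that library, Day 15 replicate 5 and Day 5 replicate 4 they were 0.50 and 0.45. Ccl9 ran from 0 to 0.506 in controls (median 0.103), from 0 to 7.08 at Day 5 (median 0.219) and from 0 to 2.096 at Day 15 (median 0.458). Only Day 5 replicates 4 and 8 and Day 15 replicates 3, 8 and 9 lay above the highest control. The Ccl9 change of 0.61 at Day 5 (SE 0.33, adjusted p = 0.419) was 0.29 without Day 5 replicate 8, and the Day 15 change was 0.45 (SE 0.35, adjusted p = 0.942), and 0.29 without Day 15 replicate 9.

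**Figure D2:**
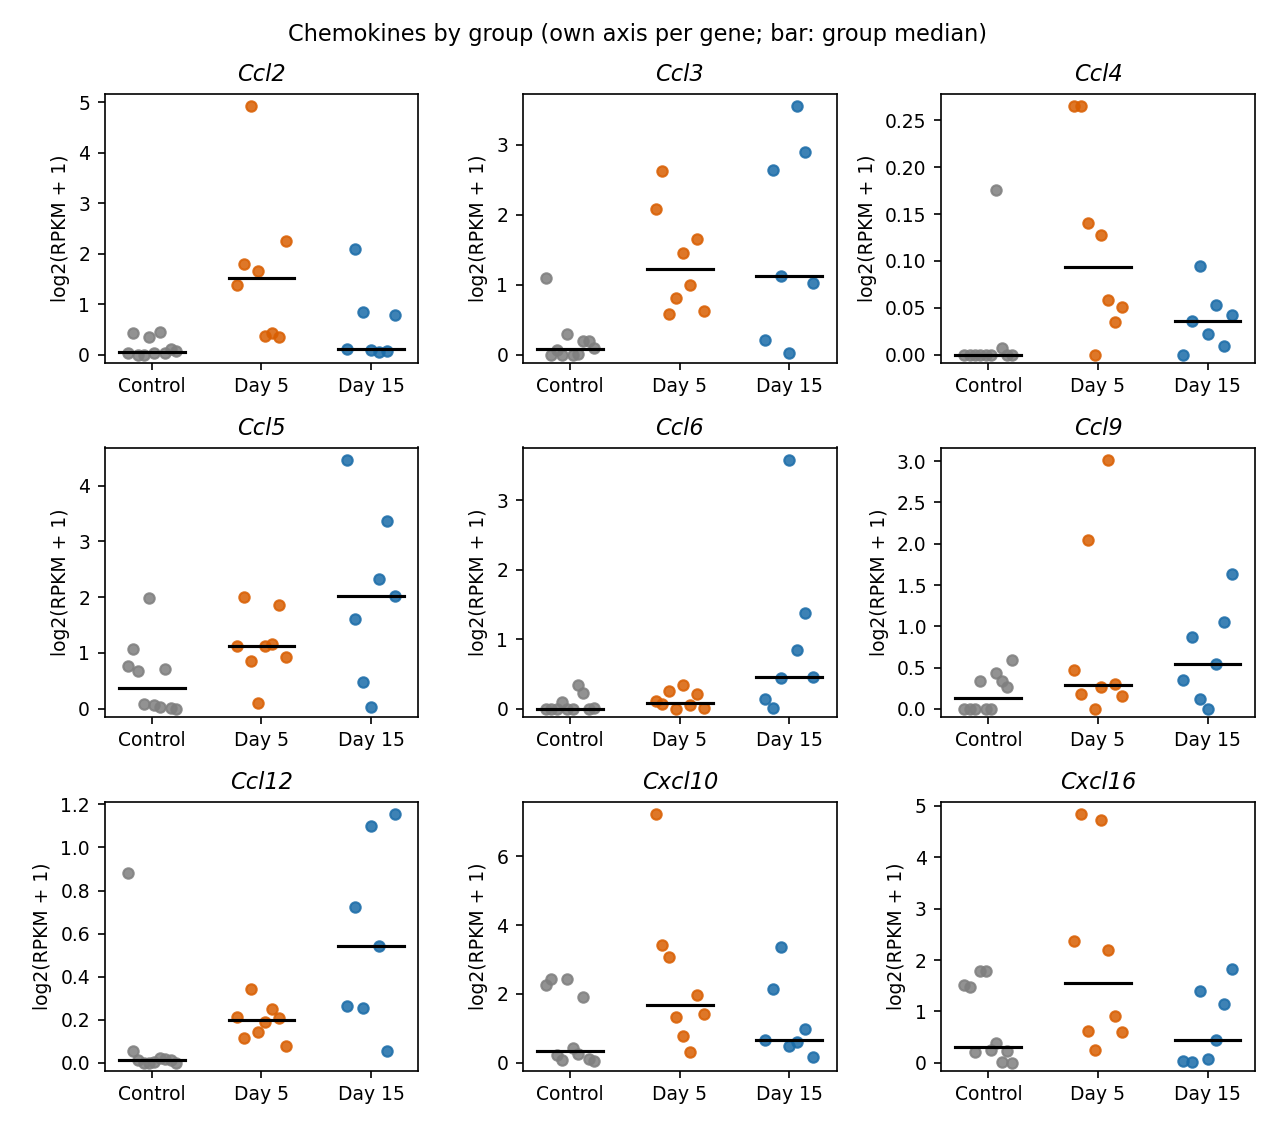
Level of each chemokine as log2(RPKM + 1), 1 panel per gene with its own vertical axis, 1 point per library (10 controls, 8 at Day 5, 7 at Day 15) and a bar at the group median. Ccl2 (1.88 RPKM), Ccl3, Ccl4, Cxcl10 and Cxcl16 had their highest median at Day 5, and Ccl5, Ccl6, Ccl9 and Ccl12 at Day 15. Every gene shows overlap between stroke and control libraries.

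Ccl5, Ccl9, Ccl6, Ccl3 and Ccl4 are 5 consecutive protein-coding genes on mouse chromosome 11 in the RefSeq annotation of GRCm38.p6, and Ccl2 and Ccl12 lie together on the same chromosome, with Ccl7 and Ccl11 among their neighbours. Cxcl16 is elsewhere on chromosome 11 and Cxcl10 is on chromosome 5. Adjacent genes of these 5 were little alike across the 25 libraries after removal of group means. In chromosomal order, rho was 0.07 for Ccl5 and Ccl9, 0.07 for Ccl9 and Ccl6, 0.14 for Ccl6 and Ccl3 and 0.22 for Ccl3 and Ccl4. Ccl3 and Ccl5, the most alike members, are not adjacent.

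Cxcl10, also called IP-10, is induced by interferons and recruits activated T cells through Cxcr3, and it had the highest single value of the 9. The upstream sequence is shown for Cxcl10, the member with the highest single value, and for Ccl3. Among the 4 members kept by the filter, Ccl3 came nearest to the threshold. Both are the 250 bases before the transcription start from the RefSeq table of GRCm38.p6, which held 5 of the 9 members (Ccl3, Ccl6, Ccl9, Ccl12, Cxcl10), printed 5′ to 3′ on the gene's strand. Capitals mark matches on either strand to GAAANNGAAA, the core of the interferon-stimulated response element, and to GGGANNNNCC, a core of NF-kB sites.
Cxcl10, chr5:92348890-92349139, minus strand: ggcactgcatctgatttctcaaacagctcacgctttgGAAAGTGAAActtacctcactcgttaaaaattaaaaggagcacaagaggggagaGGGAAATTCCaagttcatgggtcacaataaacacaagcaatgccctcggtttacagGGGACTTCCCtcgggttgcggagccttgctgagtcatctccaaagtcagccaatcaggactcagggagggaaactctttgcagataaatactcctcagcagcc
Ccl3, chr11:83649379-83649628, minus strand: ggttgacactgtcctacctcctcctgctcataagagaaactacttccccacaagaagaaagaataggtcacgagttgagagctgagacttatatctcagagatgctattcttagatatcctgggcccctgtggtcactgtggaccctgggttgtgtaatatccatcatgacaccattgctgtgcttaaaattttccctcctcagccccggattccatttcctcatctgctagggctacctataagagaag
The Cxcl10 sequence held 1 match to the first motif, beginning 213 bases before the start, and matches to the second beginning 159 and 103 bases before it, with a match to the AP-1 motif TGANTCA 74 bases before. The first motif occurs in 2.98% of 32851 promoter windows of this length, the second in 17.6% and the AP-1 motif in 6.75%. The Ccl3 window held none of these letters, and among the other 3 members AP-1 letters were found for Ccl9. A match is a description of letters and does not show that a factor binds there.

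Control libraries ran from 0.0383 to 4.43 RPKM of Cxcl10 (median 0.263), with 4 of 10 above 1. Day 5 libraries ran from 0.251 to 149 (median 2.28), with 3 of 8 above the highest control, and Day 15 libraries from 0.117 to 9.21 (median 0.588), with 1 of 7 above it. Most stroke libraries therefore lay inside the control range. The change was 1.42 at Day 5 (SE 0.65, 95% interval 0.12 to 2.72, adjusted p = 0.153), 0.19 at Day 15 (SE 0.67, adjusted p = 0.976) and -1.24 between the days (SE 0.71, adjusted p = 0.416). Without Day 5 replicate 1, which held 86.0% of the Day 5 sum, the Day 5 change was 0.74 and the difference between the days -0.55. Cxcl10 moved with the number of detected genes more than any other member did, with a Spearman's rho of 0.73 over 25 libraries after removal of group means, against 0.64 for Ccl2, 0.07 for Ccl3 and a median of 0.40 over the 4319 genes kept. With that number in the model the Cxcl10 change was -0.28 at Day 5 and -0.31 at Day 15, and -0.03 between the days. The genes most like Cxcl10 by that measure were Rpl8 (0.84), Trio (0.81) and Rplp0 (0.80), 2 of which encode ribosomal proteins.

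**Figure D3:**
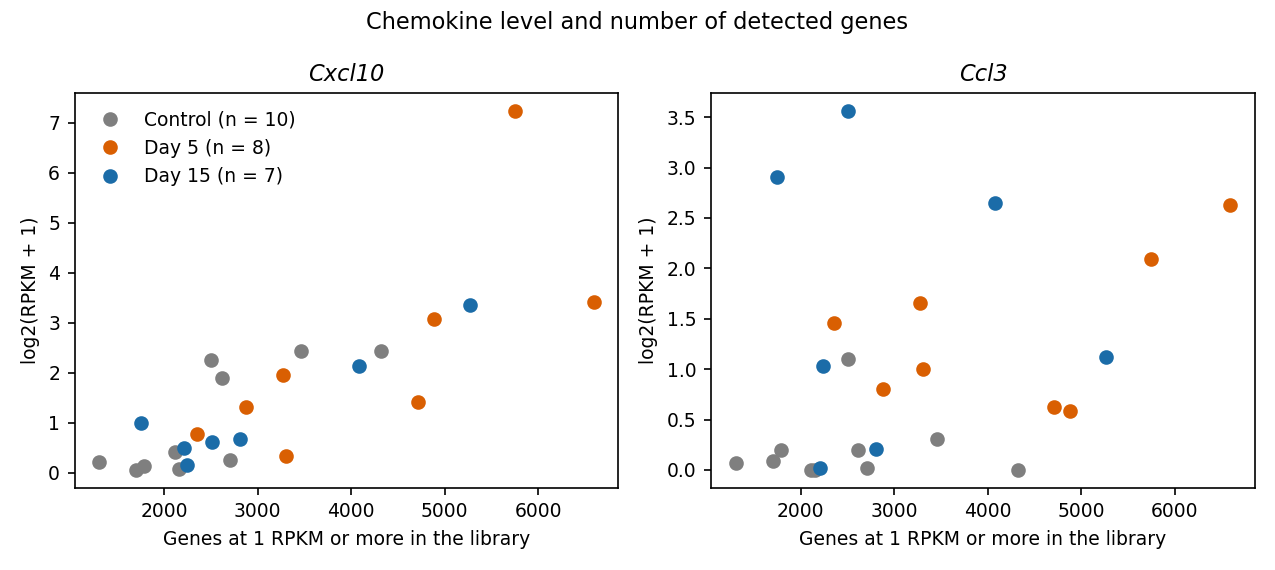
Level of Cxcl10 (left) and Ccl3 (right) as log2(RPKM + 1) against the number of genes at 1 RPKM or more in the same library, 1 point per library coloured by group. Cxcl10 is higher where more genes are detected, in controls too, while Ccl3 is near 0 in 9 of 10 controls whatever their number of detected genes.

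Cxcl16, a chemokine made as a membrane protein and shed by ADAM10, binds Cxcr6 and also takes up oxidized lipids as a scavenger receptor. Controls ran from 0 to 2.47 RPKM (median 0.248), Day 5 libraries from 0.186 to 27.7 (median 2.23) and Day 15 libraries from 0.0173 to 2.55 (median 0.369). At Day 5, replicates 3 and 7 stood at 27.7 and 25.6, replicates 1 and 8 at 4.20 and 3.59, and the other 4 lay below 1, so Day 5 overlapped with the controls. The change was 1.30 at Day 5 (SE 0.54, 95% interval 0.22 to 2.38, adjusted p = 0.119) and -0.06 at Day 15 (SE 0.56, adjusted p = 0.991). The difference between the days, -1.36 (SE 0.59, 95% interval -2.54 to -0.18, adjusted p = 0.273), was the largest of the 9 in size and did not pass the test. The genes most like Cxcl16 were Tpd52l2 (rho 0.74), Igtp (0.70) and Atp13a2 (0.68), those most like Ccl3 were Gtpbp1 (0.68), Flt1 (0.67) and Psmc6 (0.65), and those most like Ccl5 were Tlr3 (0.69), H2-Q4 (0.66) and Itpr2 (0.65).

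**Figure D4:**
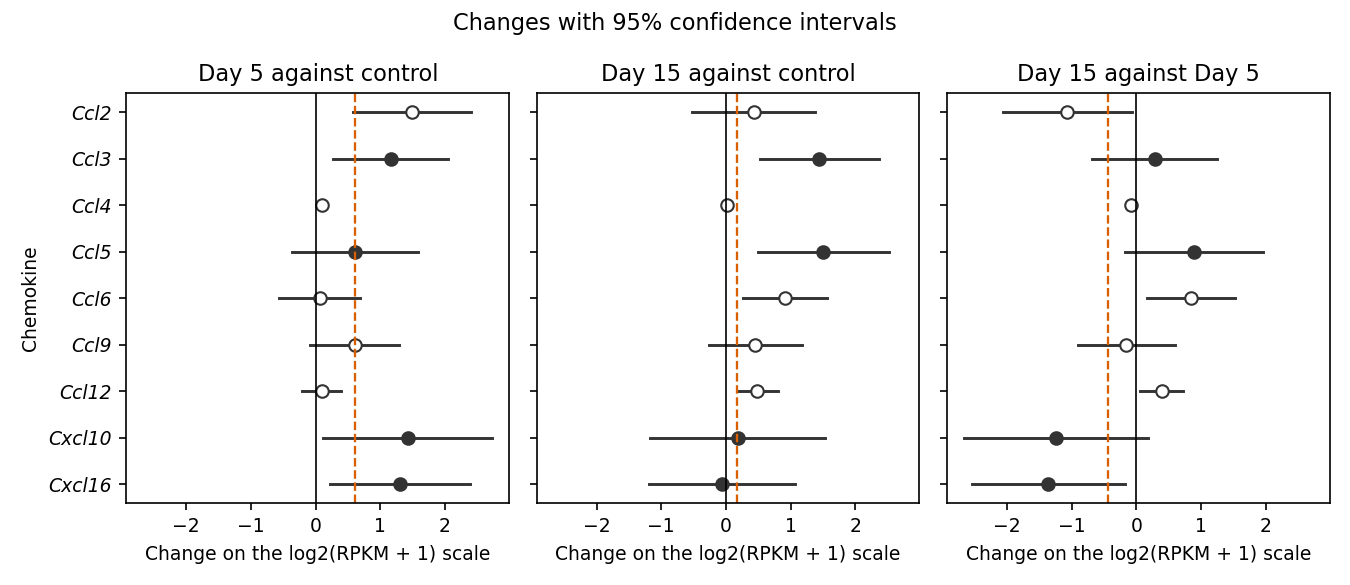
Change of each chemokine on the log2(RPKM + 1) scale with its 95% confidence interval in 3 comparisons. Filled points come from the fit of 4319 genes and open points from the fit without a filter, and the dashed line is the median change of the 4319 genes, 0.61, 0.17 and -0.44. At Day 5 the intervals of Ccl2, Ccl3, Ccl4, Cxcl10 and Cxcl16 lie above 0, and at Day 15 those of Ccl3, Ccl5, Ccl6 and Ccl12, before adjustment for the number of genes tested.

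Set beside all genes, the 9 had positive changes at Day 5 in 9 of 9 and at Day 15 in 8 of 9, where 75.7% and 54.4% of the 22610 genes did. Their median change without a filter was 0.61 at Day 5, 0.45 at Day 15 and 0.62 for both stroke days, beside medians of 0.077, 0.0045 and 0.052 over all genes. The 4 members kept by the filter stand beside a median of 0.61 at Day 5, and Ccl5 at 0.61 did not exceed it, while at Day 15 Ccl3 (1.44) and Ccl5 (1.5) stand beside a median of 0.17. Scaling each library to its upper quartile moved the median of the genes kept at Day 5 from 0.61 to 0.12, scaling to the same sum without Rn45s, the ribosomal RNA precursor, moved it to 0.16, and quantile normalization to -0.02. Under quantile normalization the Day 5 change was 1.02 for Ccl2, 0.66 for Ccl3, 0.81 for Cxcl10 and 0.85 for Cxcl16, and it was -0.01 for Ccl6 and -0.02 for Ccl12. At Day 15 the same scaling left Ccl3 at 1.48 and Ccl5 at 1.5. All 9 members had at least 7 of 8 Day 5 libraries above the control median, which 36.3% of all genes above 0 and 50.4% of the genes kept also had. At Day 15, 7 of 9 had at least 6 of 7 libraries above it, which 7.47% of all genes and 19.0% of the genes kept had.

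The receptors described here were low in most libraries, and none was called. Ccr2, the receptor of Ccl2 and Ccl12, had medians of 0.05, 0.857 and 0.157 and reached 1 RPKM in 4 of 8 Day 5 libraries, in 0 of 7 at Day 15 and in 1 control, Control replicate 1, at 6.34. Cxcr3, the receptor of Cxcl10, was listed at 0 in 9 of 10 controls and reached 1.54 in Day 5 replicate 3 and 1.39 in Day 5 replicate 1. Cxcr6, the receptor of Cxcl16, was listed at 0 in 9 of 10 controls and was at most 0.569 at Day 5 and 0.899 at Day 15. Ccr1 and Ccr3 stayed at or below 0.365 and 0.334 in all 25 libraries. Of the atypical receptors that take up chemokines without signalling through G proteins, Darc, now named Ackr1, had group medians of 0.00286, 0.128 and 0.0131 and reached 3.62 in Day 15 replicate 6. Ccbp2, now named Ackr2, was at most 1.39, in Control replicate 2. Of 24 measured receptor genes, 3 passed the filter, and 0 of 3 were called in any comparison.

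The remaining genes of the pathway were read as whole lists and not picked by their change. Of 31 other chemokine ligands none passed the filter, 18 were under 1 RPKM in every library and 4 were listed at 0 throughout, so no ligand besides Ccl3, Ccl5, Cxcl10 and Cxcl16 was tested among the genes kept. Of 11 inducers and upstream regulators kept out of 25, 1 rose and 0 fell at Day 5 and for both stroke days, with 6.04% and 1.55% of all genes kept called and list medians of 0.66 and 0.52 beside 0.61 and 0.42 for all genes kept. That gene was Irf8, a transcription factor of the myeloid lineage, which ran from 0.01 to 1.68 RPKM in controls (median 0.137), from 0.659 to 24.2 at Day 5 (median 2.56) and from 0.671 to 32.2 at Day 15 (median 2.05). Its change was 1.82 at Day 5 (SE 0.56, adjusted p = 0.0427) and 1.75 for both stroke days (SE 0.48, adjusted p = 0.0451). Of 14 interferon-induced genes kept out of 16, 0 were called at Day 5, with a median change of 0.31 beside 0.61, and 0 at Day 15, with -0.19 beside 0.17. At an unadjusted p under 0.05 there were 2 of the 14 at Day 5 and 1 at Day 15, beside 26.0% and 8.87% of all genes kept.

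Of 13 genes for ligand release, receptor coupling and adhesion kept out of 15, 2 rose at Day 5 and 1 rose for both stroke days, with list medians of 1.22 and 0.83 beside 0.61 and 0.42 for all genes kept, of which 6.04% and 1.55% were called. Itgb2 and Itgam, the subunits of the leukocyte integrin CD11b/CD18, rose by 2.55 (SE 0.62, adjusted p = 0.0130) and 2.5 (SE 0.72, adjusted p = 0.0326) on the log2(RPKM + 1) scale at Day 5. Itgb2 ran from 0.00500 to 7.37 RPKM in controls (median 0.573) and from 2.16 to 69.4 at Day 5 (median 8.05). Itgam ran from 0.0753 to 101 in controls (median 0.645), with Control replicate 1 at 101, and from 6.00 to 84.3 at Day 5 (median 15.4). Pik3cg, the lipid kinase activated by G protein-coupled receptors in leukocytes, was 1.85 higher for both stroke days (SE 0.50, adjusted p = 0.0434). These calls are not firm: Irf8, Itgb2, Itgam and Pik3cg kept their direction under every alternative run, but each lost its call with the number of detected genes in the model, under each of the 3 other scalings and without the filter. Leaving out single libraries ended the call in 12 of 25 fits for Irf8 at Day 5 (18 of 25 for both stroke days), 9 of 25 for Itgam, 0 of 25 for Itgb2 and 16 of 25 for Pik3cg, with adjusted p up to 0.117, 0.0896, 0.0452 and 0.0901. The summed microglial markers ran from 3.45 to 21.2 in controls, 9.72 to 225 at Day 5 and 24.2 to 228 at Day 15, and their part in these changes was not tested.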

How the data were processed

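RNA of mouse oligodendrocyte precursor cells from laser capture was amplified with a Nugen Ovation kit and sequenced as paired ends on Illumina libraries, per the labels' protocols. The submitters' processing notes name CASAVA 1.8.3, the aligner STAR 2.1.4a, the counter HTSeq and the genome build mm9. The authors deposited 1 table of RPKM values. The sources used here do not say how RPKM was scaled, which gene lengths entered or whether strand was counted, so overlapping genes and related chemokines that share reads are uncertain. Low values showed no steps of whole reads, so read depth is unknown and counting error cannot be given. Amplification of small amounts of RNA widens the spread of low genes.

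Libraries were grouped and numbered by their labels. From the 23351 genes deposited, 741 at 0 in every library were dropped, and those at 1 RPKM or more in at least 7 libraries (4319) were fitted as log2(RPKM + 1) with limma 3.58.1 in R 4.3.3, all 3 groups together, with an intensity trend, robust variances, two-sided tests and Benjamini-Hochberg adjustment over all genes fitted. Members under this filter took their values from the fit of 22610 genes. The script was tested on simulated data with changed genes of known size. Descriptions were computed in Python 3.11.15 with pandas and scipy. Promoter sequences were matched by symbol to RefSeq's GRCm38.p6 table, and no coordinates of the expression table were used. Every column was used.

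Named genes are the 9 chemokines, their receptors, the called genes of 5 pathway lists and, for each member kept, the 3 genes most like it. Not every gene this rule names is reported here. The members and lists were chosen with earlier results of these data known. Alternatives were 0.1 as pseudocount, fitting without a filter or at a mean of at least 5 RPKM, 3 other scalings, library weights, a replicate block, detected genes or number range as a covariate, number ranges apart, the compared groups alone, 3 libraries left out together, a change of at least 1 and each library left out. A pseudocount of 0.01 was added after seeing the data.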

Additional observations from a re-analysis of the deposited data

Results flagged for a closer look

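In 7 of 27 sets of chemokine and group, 1 library lay so far from the next on the log2(RPKM + 1) scale that its gap exceeded Dixon's 95% critical value. That value flags about 1 of 20 sets of normally distributed values by chance, and these values are skewed and often listed at 0, so the rate is no measure of chance here. All 7 were the highest library of their group. At Day 5, Ccl2 stood at 29.4 RPKM in replicate 4, with the next library at 3.77, and Cxcl10 at 149 in replicate 1, with the next at 9.69. At Day 15, Ccl2 stood at 3.29 in replicate 3, with the next at 0.798, and Ccl6 at 10.9 in replicate 6, with the next at 1.60. Among controls, Ccl3 at 1.15 and Ccl12 at 0.839 were both in replicate 1, with the next controls at 0.233 and 0.0381. Ccl4 at 0.129 was in Control replicate 7, with the next at 0.00498. Such single high libraries are common in this table: over the 4319 genes kept, the highest library held a median of 41.8% of the group's sum in controls, 39.7% at Day 5 and 50.9% at Day 15.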

How the results depend on the processing

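Over the 41 alternatives, 1757 values were recomputed for 45 results, of which 1606 kept their direction and their side of the threshold, 31 changed direction, 93 lost a call, 16 gained one and 11 counts of called members moved from 0. The 93 lost calls all belong to Irf8, Itgb2, Itgam and Pik3cg. The number of members called was 2 at Day 5 and 1 for both stroke days with a pseudocount of 0.1, 2 and 2 with the added pseudocount of 0.01, 2 at Day 15 and 2 for both stroke days with library weights, 1 at Day 5 with the compared groups alone and 1 for both stroke days without Day 5 replicate 4 and Day 15 replicates 5 and 6. In the same order, the genes called among the 4319 were 553 and 273, 516 and 323, 29 and 220, 365, and 38. The Ccl2 calls at Day 5 with pseudocounts of 0.1 and 0.01 stood beside 243 and 548 of the 22610 genes without a filter. With 1 library left out the number of members called ran from 0 to 1 for both stroke days. It was 0 between the days under every alternative. The cause of these moves was not tested, and a smaller pseudocount by its construction widens changes of low genes.

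Most changes of direction concerned small values, but those of Cxcl10 at Day 5 and for both stroke days did not, since they stood at 1.42 and 0.80. The Cxcl10 change was -0.28 at Day 5, -0.31 at Day 15 and -0.30 for both stroke days with detected genes as a covariate, and at Day 15 it was -0.0394 with sum scaling without Rn45s and -0.10 without the 3 libraries named above. The Cxcl16 change at Day 15 was 0.0811 with quantile normalization, 0.37 with library weights and 0.98 in replicate numbers 7 to 10 alone, where Ccl4 was at -0.0105. With quantile normalization Ccl6 was at -0.0149 and Ccl12 at -0.0200 at Day 5. Between the days, Ccl3 was at -0.0137 and -0.33 with pseudocounts of 0.1 and 0.01 and at -0.53 in replicate numbers 1 to 6 alone, Ccl4 was at 0.0528 with quantile normalization, and Ccl9 was at 0.10, 0.0409 and 0.18 with upper-quartile, sum and quantile scaling, at 0.14 in numbers 7 to 10 alone and at 0.26 without those 3 libraries. With 1 library left out, Cxcl10 at Day 15 ran from -0.17 to 0.36, Cxcl16 at Day 15 from -0.25 to 0.0539, and between the days Ccl3 ran from -0.0349 to 0.55 and Ccl9 from -0.31 to 0.17.

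Libraries with the same replicate number were hardly more alike than others: deviations from the group means had a median correlation of 0.014 over 20 same-number pairs, none over 0.1. It was 0.0012 over 186 pairs of different numbers. The labels do not say what a number shares, so pairing is unknown. With the number as a replicate block (consensus correlation 0.027), 0 members were called in each of the 4 comparisons, Ccl3 at Day 5 was at 1.15 (adjusted p = 0.0810), and the count of called genes at Day 5 was 349 against 261. Counts of called genes at Day 5 were 553 with a pseudocount of 0.1, 516 with 0.01, 597 with library weights, 398 with number range as a covariate, 119 of 1142 with a mean of at least 5 RPKM, 24 without a filter, 23, 36 and 20 with upper-quartile, sum and quantile scaling, 4 in each number range alone and 0 with detected genes as a covariate. Depth is unknown, and chemokines under 1 RPKM cannot be separated from dropout in amplification.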

Other observations

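Control replicate 1 was the highest of the 10 controls for several genes of chemokine signalling at once. It had Ccl3 at 1.15 and Ccl12 at 0.839 RPKM, Ccr2 at 6.34, Ccr1 at 0.365 and Itgam at 101, while its summed microglial markers were the lowest of the controls at 3.45. No label sets this library apart, and leaving it out gave 0 called members in each of the 4 comparisons. The genes named for it were picked after their values were seen. Another control, replicate 7, was the highest control for Ccl2 (0.369), Ccl4 (0.129) and Ccl6 (0.265).

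Among ligands outside the 9, several had high values in a few libraries, and the examples were chosen after their values were seen. Cx3cl1, a membrane-bound chemokine known from neurons, reached 42.4 RPKM in Day 5 replicate 3 and was at 1 RPKM or more in 5 of 25 libraries. Xcl1, known from T and NK cells, reached 12.4 in Day 5 replicate 1, the library with the most Cxcl10. Cxcl9, which shares the receptor Cxcr3 with Cxcl10, reached 11.3 in Day 15 replicate 5, where Cxcl10 had its highest Day 15 value of 9.21. Cxcl13, a B cell attractant, differed from these in being spread over the Day 15 group. It was above 0 in 7 of 7 Day 15 libraries and at 1 RPKM or more in 4 of them (median 1.8, highest 5.96 and 5.36 in replicates 9 and 3), with medians of 0.0138 at Day 5 and 0 in controls, where 9 of 10 were listed at 0. Its Day 15 change was 1.42 (SE 0.31) and did not pass the test (adjusted p = 0.529 by limma without a filter).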
